A study of Homo sapiens with 6 samples.

Results

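The 10 genes described here encode the nuclear receptor PPARG, its partners RXRA and RXRB, and the transcription factors GATA3, FOXA1, ELF3, GRHL2, GRHL3, KLF5 and TP63, which take part in the identity of the bladder epithelium (urothelium). They were chosen by name from the 78932 genes of the deposited count table, and all 10 have 1 row in it. The table holds polyadenylated RNA of T24, an established cell line from a human bladder carcinoma. In 3 replicates the cells received a non-targeting control siRNA (siNC). In 3 others they received an siRNA against TRIM28 (siTRIM28), a corepressor that the study examines as a SUMO ligase for PPARG. All 6 replicates were of the same line, were grown in the same medium with serum and carried the same batch label. The time from transfection to harvest, and which of the study's siRNAs against TRIM28 was used, are not given in the sources used here.

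PPARG is a ligand-activated transcription factor that binds DNA as a heterodimer with a retinoid X receptor, of which RXRA and RXRB are widely expressed forms. In the urothelium, PPARG acts with FOXA1 and GATA3 to drive genes of the luminal, differentiated state, and ELF3, GRHL2, GRHL3 and KLF5 are factors of epithelial differentiation and barrier formation. TP63, a relative of p53, marks the basal layer and stem-like cells. Bladder cancers are commonly sorted into luminal and basal groups by these same factors and their targets, and some lines lack both programmes. The comparison asked whether the RNA of these factors changed when TRIM28 was silenced. The counts measure RNA and hold nothing on the level or modification of the proteins.

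Total counts lay between 11712623 and 14018052 per library. Levels are given as read counts scaled to a common library size (CPM) after TMM scaling, and 3 counts were worth 0.214 to 0.253 CPM, depending on the library. TRIM28 itself had 1419, 1393 and 1382 counts in siNC and 130, 96 and 109 in siTRIM28, and fell from 104 ± 4.09 CPM in siNC to 8.87 ± 0.658 in siTRIM28 (SD, n = 3 per group). Replicates were not equally close to each other. The counts of siNC replicates 1 and 2 differed with a chi-square of 1.076 per degree of freedom, and those of siTRIM28 replicates 2 and 3 with 1.218, whereas every pair with siNC replicate 3 or siTRIM28 replicate 1 lay between 4.166 and 6.246. Both close pairs still differed by more than sampling noise. So small an excess cannot tell whether the libraries of a close pair came from separate cultures. All 6 libraries were kept as the separate replicates that their labels name. The p-values measure the spread between these libraries of 1 cell line, taken as separate replicates.

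Silencing of TRIM28 was accompanied by lower RNA of both retinoid X receptors, while PPARG itself was within the spread between replicates. RXRA fell by 56.2%, and RXRB fell by 30.6%. In bulk RNA such as this, fewer cells that express a gene and less of its RNA per cell cannot be told apart. FOXA1 and KLF5 did not pass the test, and TP63, at the edge of detection, rose and lay at the threshold. GATA3 was too low to be tested, and ELF3, GRHL2 and GRHL3 were not detected above background counts in either group. Of the 10 genes, 6 reached the count minimum (10 counts, in no fewer than 3 libraries), and 3 of these 6 passed an adjusted p of 0.05, with 2 lower and 1 higher. Over all 18474 genes tested, 41.8% passed that threshold, 20.5% lower and 21.3% higher in siTRIM28. The count of members past it thus lay near that of all genes. The 1 higher member, TP63, reached the count minimum only through siTRIM28 and lost its call in 11 of 16 alternatives.

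**Figure D1:**
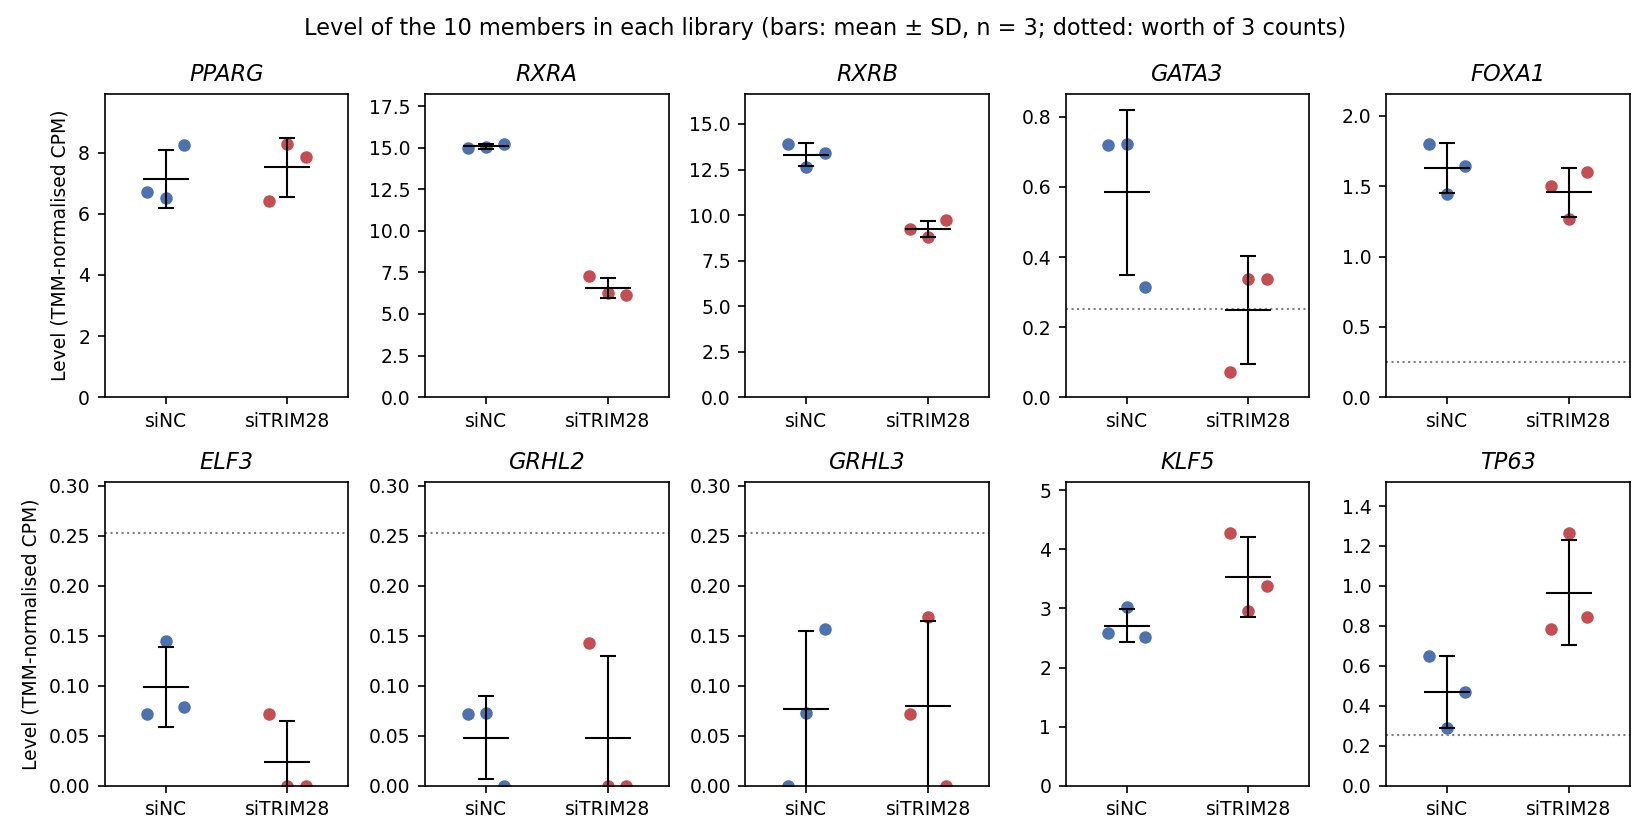
Each panel plots the TMM-normalised CPM of 1 gene in the 3 siNC and the 3 siTRIM28 libraries (points), with the mean and SD as bars; the y axes start at 0 and differ between panels. The siTRIM28 points of RXRA (6.17 to 7.28) and RXRB (8.78 to 9.71) lie below all siNC points, those of PPARG overlap, and ELF3, GRHL2 and GRHL3 stay under the dotted line that marks 0.253 CPM, the worth of 3 counts in the shallowest library.

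Upstream sequence of 3 genes is shown because both retinoid X receptor genes fell while PPARG, their partner, was within the replicate error. Each holds the 150 bases before a transcription start in RefSeq (GRCh38.p14), taken at the start nearest to the gene's 5′ end in the count table, and is written 5′ to 3′ in the gene's direction. The table has an entry for 9 of the 10 genes. Capitals mark a GC box (GGGCGG or its reverse complement CCGCCC), the core of the site for SP1-type factors. The windows are chr9:134326305-134326454 on the plus strand for RXRA, chr6:33200666-33200815 on the minus strand for RXRB and chr3:12287218-12287367 on the plus strand for PPARG.
RXRA: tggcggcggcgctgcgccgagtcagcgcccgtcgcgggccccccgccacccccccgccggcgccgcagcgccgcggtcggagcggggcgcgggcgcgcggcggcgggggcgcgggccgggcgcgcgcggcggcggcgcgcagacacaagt
RXRB: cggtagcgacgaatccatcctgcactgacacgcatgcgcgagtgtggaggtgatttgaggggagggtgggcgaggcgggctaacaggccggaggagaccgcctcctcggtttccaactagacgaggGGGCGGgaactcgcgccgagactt
PPARG: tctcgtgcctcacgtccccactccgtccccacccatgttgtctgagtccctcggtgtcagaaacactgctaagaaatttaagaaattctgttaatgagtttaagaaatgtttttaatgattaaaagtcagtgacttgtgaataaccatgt

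The 3 windows differ in base composition. G and C made up 89.3% of the RXRA window, 64.7% of the RXRB window and 40.7% of the PPARG window, against a median of 60.0% over the 35114 windows of the table. Only the RXRB window among these 3 held a GC box, beginning 24 bases before the start, and 36.8% of all windows held at least 1. None of the 3 held the nuclear receptor half-site AGGTCA (or TGACCT on the other strand), which 7.64% of all windows held. The RXRA start shown lies 9357 bases inside the 5′ end that the count table gives for the gene. The bases just after both RXRA starts were not found in the reference transcripts of the gene. For RXRB and PPARG they were found for some of the listed starts and not for others. Whether the RXRB and PPARG starts shown are among those found was not recorded. The RXRB window lies inside SLC39A7, a gene on the other strand (33200305 to 33204376). The PPARG start is 1 of 6 that RefSeq lists. The counts are summed over all transcripts of a gene, so they cannot be split between starts.

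PPARG (ENSG00000132170, chromosome 3 of GRCh38, 12287368 to 12434162) had 93, 90 and 105 counts in siNC replicates 1, 2 and 3 and 90, 98 and 93 in siTRIM28 replicates 1, 2 and 3. In CPM this was 6.70, 6.50 and 8.23 in siNC against 6.43, 8.28 and 7.85 in siTRIM28. The groups overlapped: siTRIM28 held both the lowest and the highest library. The log2 fold change was 0.07 (standard error 0.143, edgeR adjusted p = 0.728; exact permutation p = 0.9, two-sided), and its 95% interval ran from −0.24 to 0.38, or a ratio between 0.846 and 1.30. The interval does not reach an absolute log2 change of 0.58 in either direction, and a change inside it was not detectable at this depth. Without siNC replicate 2 and without siTRIM28 replicate 2 the sign turned, the lower value being −0.0040.

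RXRA (ENSG00000186350, chromosome 9, 134317098 to 134440585) had the largest change among the members tested. Its level was 15.0, 15.0 and 15.2 CPM in the siNC libraries and 7.28, 6.25 and 6.17 in the siTRIM28 libraries. Every siTRIM28 library was less than the lowest siNC library, with siTRIM28 replicate 1 the highest of its group. From 15.1 ± 0.124 to 6.57 ± 0.623 CPM (SD, n = 3), the log2 fold change was −1.19 (95% interval −1.40 to −0.98, standard error 0.0949, edgeR adjusted p = 1.76e-06). The exact permutation test gave p = 0.1, the smallest value that 3 libraries against 3 can give. When single libraries were left out, the log2 fold change stayed between −1.28 and −1.16.

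RXRB (ENSG00000204231, chromosome 6, 33193588 to 33200614), which encodes a second retinoid X receptor, changed in the same direction by less. It had 13.9, 12.6 and 13.4 CPM in siNC and 9.21, 8.78 and 9.71 in siTRIM28, again without overlap. The mean went from 13.3 ± 0.633 to 9.24 ± 0.465 CPM (SD, n = 3), with a log2 fold change of −0.53 (95% interval −0.72 to −0.33, standard error 0.0880, edgeR adjusted p = 0.000522), which is under an absolute change of 0.58. RXRB overlaps the 5′ end of SLC39A7, a zinc transporter gene on the other strand, and the sources used here do not give the strand setting of the counting. SLC39A7 had 4929 counts over the siNC libraries and 5106 over the siTRIM28 libraries, with a log2 fold change of 0.15 (edgeR adjusted p = 0.0921). The part of this overlap in the RXRB counts was not tested. RXRA overlaps only a microRNA gene that is listed at 0 in all libraries.

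The ratio of both receptors in each library was used to ask whether they fell by the same amount. The log2 ratio of RXRA to RXRB was 0.11, 0.25 and 0.18 in siNC replicates 1, 2 and 3, and −0.33, −0.48 and −0.64 in siTRIM28 replicates 1, 2 and 3. RXRA thus exceeded RXRB in CPM in each siNC library and was below it in each siTRIM28 library. CPM is not corrected for exon length, which is 12077 bases for RXRA and 3897 for RXRB. Per kilobase, RXRB was above RXRA in siNC (3.42 against 1.25 RPKM) and in siTRIM28 (2.37 against 0.544). Only the change of the ratio is therefore read here. The difference of the means was −0.66 on the log2 scale, with SDs of 0.0698 and 0.155 within the groups (two-sided p = 0.1 by exact permutation, which 3 against 3 cannot go under). Leaving out 1 library at a time moved it between −0.74 and −0.58. The third receptor of the family, RXRG, had 1 count in 1 library.

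**Figure D2:**
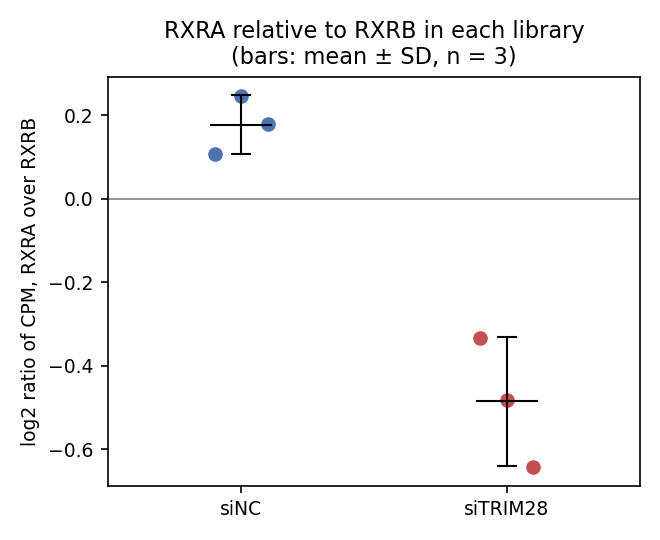
The log2 ratio of RXRA to RXRB in CPM (y axis) is plotted for each library of siNC and siTRIM28, with the mean and SD (n = 3) as bars. The siNC points lie between 0.11 and 0.25, above 0, and the siTRIM28 points between −0.64 and −0.33, below it. CPM is not corrected for exon length, so the side of 0 does not tell which gene was higher per kilobase.

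FOXA1 (ENSG00000129514, chromosome 14, 37589552 to 37596059) encodes a pioneer factor that opens chromatin at luminal genes. Its level was low, with 1.80, 1.44 and 1.65 CPM in siNC and 1.50, 1.27 and 1.60 in siTRIM28. The groups overlapped, and the log2 fold change of −0.16 (95% interval −0.66 to 0.35, edgeR adjusted p = 0.652) was within the replicate error. Each library held only 15 to 25 counts of the gene. GATA3 (ENSG00000107485, chromosome 10, 8045378 to 8074890), a zinc finger factor of luminal cells, had 10, 10 and 4 counts in siNC and 1, 4 and 4 in siTRIM28. It missed the count minimum, since only 2 libraries reached 10 counts, and siNC replicate 3 was as low as siTRIM28 replicates 2 and 3. A fit without the count minimum gave it a log2 fold change of −1.28 with an edgeR adjusted p of 0.112. GATA3-AS1, which overlaps it on the other strand, had 13 counts in all siNC libraries together and 5 in all siTRIM28 libraries.

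KLF5 (ENSG00000102554, chromosome 13, 73054976 to 73075778), a zinc finger factor of proliferating epithelium, had 2.59, 3.03 and 2.51 CPM in siNC and 4.28, 2.96 and 3.38 in siTRIM28. The groups overlapped through siTRIM28 replicate 2, and siTRIM28 replicate 1 was the highest library. The log2 fold change was 0.39 (95% interval −0.03 to 0.82, edgeR adjusted p = 0.124; exact permutation p = 0.2, two-sided), and it was 0.22 without siTRIM28 replicate 1. KLF5 thus did not pass the test.

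ELF3, GRHL2 and GRHL3 were at the level of single counts. ELF3 (ENSG00000163435, chromosome 1), an ETS factor that PPARG induces in urothelial differentiation, had 1, 2 and 1 counts in siNC and 1, 0 and 0 in siTRIM28. GRHL2 (ENSG00000083307, chromosome 8), a grainyhead-like factor that maintains epithelial junction genes, had 1, 1 and 0 against 2, 0 and 0. GRHL3 (ENSG00000158055, chromosome 1), its relative of terminal urothelial and skin differentiation, had 0, 1 and 2 against 1, 2 and 0. No library exceeded 2 counts for any of these genes, which is less than 3 counts, the number that a count of 0 allows (0.214 to 0.253 CPM by library, counting error only). They were therefore not detected in siNC or in siTRIM28, and no change is given.

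TP63 (ENSG00000073282, chromosome 3, 189631389 to 189894221) had 9, 4 and 6 counts in siNC and 11, 15 and 10 in siTRIM28. In CPM this was 0.648, 0.289 and 0.470 against 0.786, 1.27 and 0.845, so each siTRIM28 library was above each siNC library. The mean went from 0.469 ± 0.180 to 0.966 ± 0.262 CPM (SD, n = 3), with a log2 fold change of 1.01 (95% interval 0.18 to 1.84, standard error 0.378, edgeR adjusted p = 0.04998). TP63 reached the count minimum only through the siTRIM28 libraries, so its entry into the test already depended on the higher values there. The call ended in 11 of 16 alternatives, with edgeR, DESeq2 or limma-voom adjusted p up to 0.184, among them RLE scaling and the fits without siNC replicate 2 or 3 or siTRIM28 replicate 2 or 3. At this depth TP63 stayed near the limit of detection in both groups.

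**Figure D3:**
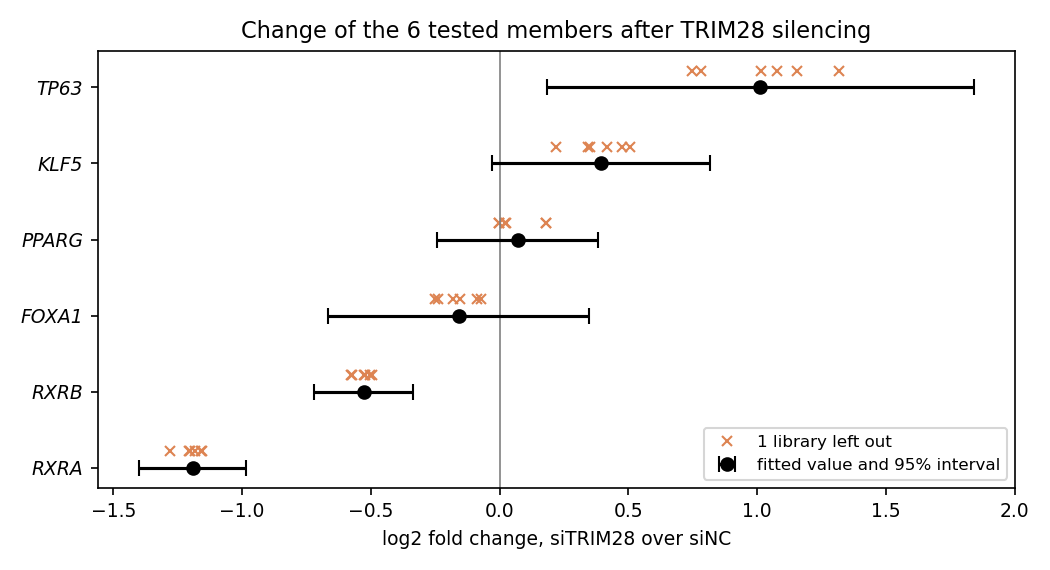
The log2 fold change of siTRIM28 over siNC (x axis) is drawn for the 6 tested genes with its 95% interval (black), and crosses above it give the value with each of the 6 libraries left out in turn. The intervals of RXRA (−1.40 to −0.98) and RXRB (−0.72 to −0.33) lie below 0, that of TP63 (0.18 to 1.84) lies above 0, and those of PPARG, FOXA1 and KLF5 include 0.

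RXRA, RXRB and TP63, 3 of the 6 tested genes, did not overlap between the groups in CPM, against 52% of all genes tested. For TP63, entry into the test already depended on its higher siTRIM28 values. Levels per kilobase of exon (RPKM) place the members against each other. In siNC the order was RXRB at 3.42 ± 0.162 RPKM, RXRA at 1.25 ± 0.0103, KLF5 at 0.737 ± 0.0767, PPARG at 0.596 ± 0.0792, FOXA1 at 0.369 ± 0.0404, GATA3 at 0.172 ± 0.0693 and TP63 at 0.0627 ± 0.0240 (SD, n = 3). The libraries of KLF5 and PPARG overlapped in siNC, as did those of GRHL3, ELF3 and GRHL2 at the bottom. In siTRIM28 RXRA dropped from the second place to the fourth, at 0.544 ± 0.0516 RPKM, where its libraries overlapped those of PPARG at 0.628 ± 0.0809. RXRA per kilobase was thus above PPARG in every siNC library and was not separated from it in siTRIM28. Among all 18474 tested genes, 55.5% lay at or below the siNC level of RXRB, 30.7% at or below RXRA, 20.4% at or below KLF5 and 16.7% at or below PPARG. These levels divide by the length of all annotated exons of a gene, which for RXRA and PPARG includes 12077 and 11981 bases, and so may understate genes whose expressed transcript is shorter.

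The coregulators through which a PPARG and RXR pair acts were read from a list of 16 genes. The list also held STUB1, which is not a coregulator of this kind and counts in the totals and the median. Of these, 15 passed the count minimum, 4 fell, 3 rose and 8 did not pass the test. Of all genes tested, 20.5% fell and 21.3% rose. The median log2 fold change of the 15 was −0.06, against 0.02 over all genes tested. TBL1X, a subunit of the NCOR1 corepressor complex, fell from 38.3 ± 1.95 to 19.7 ± 1.86 CPM (SD, n = 3), with a log2 fold change of −0.95. NCOA2, a p160 coactivator, fell from 21.1 ± 1.01 to 11.3 ± 0.648 CPM, with a log2 fold change of −0.90. PPARGC1B, a coactivator of mitochondrial genes, rose from 9.27 ± 0.471 to 12.6 ± 1.78 CPM, by 0.44 on the log2 scale. The related NCOA1 (log2 fold change −0.20, edgeR adjusted p = 0.0609) and NCOA3 (0.23, edgeR adjusted p = 0.00584) lay on either side of 0, and the closest relative of TBL1X, TBL1XR1, was at 0.10 and did not pass the test. STUB1, which encodes a ubiquitin ligase also examined in the study, had 74.0 ± 4.27 CPM in siNC and 80.5 ± 20.8 in siTRIM28 and did not pass the test. Its siTRIM28 mean rested on replicate 1, with 104 CPM against 68.9 and 68.2 in replicates 2 and 3, and the log2 fold change went from 0.12 to −0.11 without that library. PPARGC1A had at most 5 counts in a library.

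Other factors of the same families were drawn from a list of 19, of which 12 passed the count minimum. Among these 3 rose, 1 fell and 8 did not pass the test. Their median log2 fold change was 0.33, against 0.02 over all genes tested. Of all genes tested, 41.8% passed the test, 21.3% higher and 20.5% lower. KLF4, a zinc finger factor of epithelial differentiation, had 54, 37 and 50 counts in siNC and 95, 97 and 99 in siTRIM28. Its groups did not overlap, and it rose from 3.49 ± 0.711 to 7.78 ± 0.866 CPM, with a log2 fold change of 1.15 (edgeR adjusted p = 0.000230). FOXQ1, a forkhead factor, had 2, 4 and 5 counts in siNC and 12, 10 and 14 in siTRIM28, a log2 fold change of 1.78, and like TP63 it reached the count minimum only through siTRIM28. TFAP2C had 3, 6 and 16 counts in siNC and 22, 13 and 19 in siTRIM28, and did not pass the test. It met the count minimum only with the siTRIM28 libraries. The list median includes FOXQ1 and TFAP2C, so it depends in part on that minimum. GRHL1, the grainyhead-like factor that was expressed here while GRHL2 and GRHL3 were not detected, rose from 3.95 ± 0.0709 to 5.16 ± 0.187 CPM, although this call was lost in 12 of 17 alternatives. PPARD was the most abundant PPAR in siNC at 6.11 RPKM, against 0.865 for PPARA and 0.596 for PPARG. It fell from 27.2 ± 1.03 to 23.5 ± 0.753 CPM, and this call was lost in 6 of 17 alternatives. GATA2, a relative of GATA3, had 18.3 ± 3.39 and 21.8 ± 1.16 CPM and did not pass the test. RXRG, FOXA2, FOXA3, EHF, ELF5, TP73 and OVOL1 were under the count minimum.

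The label of T24 as a urothelial line was checked against lineage markers. Of 18 luminal markers only 6 passed the count minimum, and the uroplakin gene UPK1B, the umbrella cell keratin KRT20 and VGLL1 were listed at 0 in every library. CDH1, the epithelial cadherin, had at most 2 counts and EPCAM at most 6. Of 17 basal markers 6 passed, and KRT5, KRT14, KRT16 and KRT17 had at most 4 counts each while KRT6A, KRT6B and KRT6C were listed at 0. The mesenchymal markers were the most complete, with 10 of 11 above the count minimum and VIM at 1102 ± 12.0 CPM in siNC. Some of them were low in siNC, with TWIST1 at 5.65, FN1 at 5.45, SNAI2 at 2.3 and SNAI1 at 0.714 CPM. SNAI1 met the minimum only with the siTRIM28 libraries. Other genes of the luminal and basal lists were well expressed in siNC. Among the luminal markers KRT8 had 104 ± 0.619 CPM, KRT18 had 86.1 ± 3.91 and ERBB2 had 39.8 ± 1.84, and among the basal markers CD44 had 717 ± 7.81, LAMB3 had 56.8 ± 0.320, EGFR had 53.6 ± 0.486 and KRT15 had 38.7 ± 0.783. The markers of both urothelial states were thus present only in part. Of 10 markers of blood, endothelium and liver, 9 were under the count minimum, with CD3E and CDH5 listed at 0 in every library and PECAM1 at 5, 4 and 6 counts in siNC and 10, 9 and 11 in siTRIM28. The remaining one was CD68, a lysosomal protein gene, at 348 ± 2.38 CPM in siNC and 351 ± 12.1 in siTRIM28. The 10 genes together summed to 346 to 350.3 CPM per siNC library and 339 to 362 per siTRIM28 library.

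**Figure D4:**
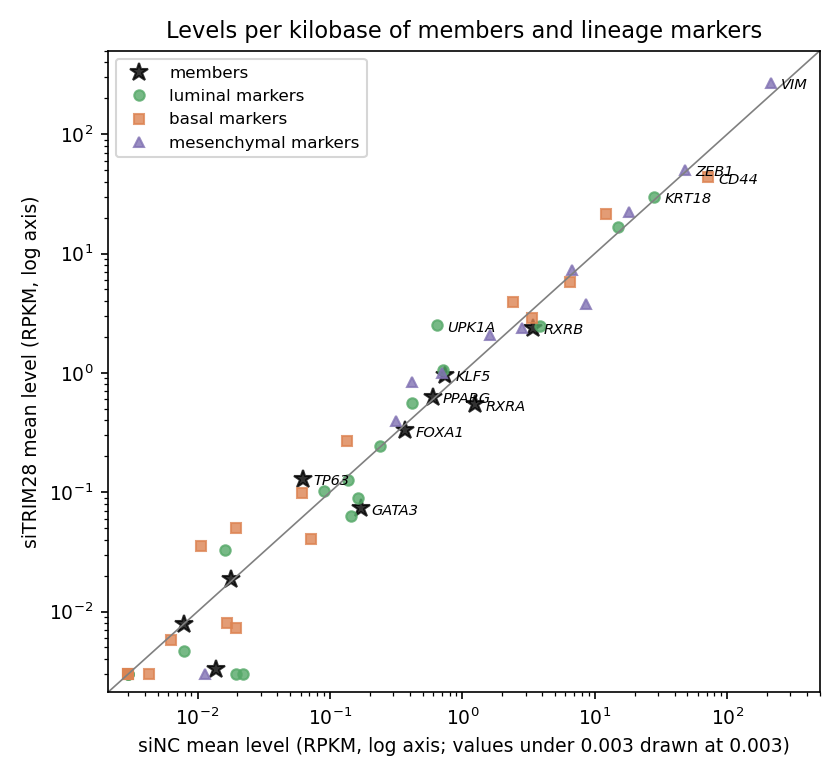
Mean RPKM in siNC (x axis) is plotted against mean RPKM in siTRIM28 (y axis), both on log axes, for the members (stars) and for luminal, basal and mesenchymal markers, with the line of equal level. Points near the lower left corner are genes with no or single counts; RXRA and GATA3 lie below the line, and VIM, at 213 RPKM in siNC, is the highest of the genes drawn.

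Among the luminal markers that passed the minimum, 3 rose, 1 fell and 2 did not pass the test. The share of all tested genes that passed it was 41.8%. UPK1A, a uroplakin of the umbrella cell surface, had 17, 15 and 4 counts in siNC and 58, 38 and 34 in siTRIM28, a log2 fold change of 1.94. In siNC only replicates 1 and 2 reached 10 counts, so UPK1A met the count minimum only with the siTRIM28 libraries. Its place among the higher genes depended in part on that minimum. ERBB2, a receptor tyrosine kinase that is often raised in luminal tumours, fell from 39.8 ± 1.84 to 25.4 ± 0.943 CPM, with a log2 fold change of −0.65. KRT7, a simple epithelial keratin, rose from 2.84 ± 0.157 to 4.20 ± 0.0965 CPM, and this call was lost in 3 of 17 alternatives. The call of KRT8, a keratin of the same kind with a log2 fold change of 0.14, was lost in 10 of 17 alternatives. The median of these 6 genes, UPK1A included, was 0.29, against 0.02 over all genes tested.

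All 6 basal markers above the count minimum passed the test, 3 of them higher and 3 lower. Their median was 0.27, against 0.02 over all genes tested. Of all genes tested, 41.8% passed. With 1 library left out, 4 or 5 of these basal markers passed, and under the other alternatives 4 to 6 did. LAMB3, a laminin chain of the basement membrane, rose by 0.80 on the log2 scale, from 56.8 ± 0.320 to 98.9 ± 7.66 CPM. COL17A1, a hemidesmosome collagen, rose by 0.70. CD44, a hyaluronan receptor, fell from 717 ± 7.81 to 435 ± 3.48 CPM, with a log2 fold change of −0.72. EGFR, a growth factor receptor gene, had a log2 fold change of −0.22. KRT15, a basal keratin gene, had one of −0.17, and its call was lost in 13 of 17 alternatives.

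Of the 10 mesenchymal markers tested, 4 rose, 1 fell and 5 did not pass the test. Their median was 0.31, against 0.02 over all genes tested. Over all genes tested, 41.8% passed. TGFBI, an extracellular matrix protein gene induced by TGF-beta, fell from 65.9 ± 1.44 to 29.4 ± 2.27 CPM, with a log2 fold change of −1.17. SNAI1, a repressor of epithelial genes, had 12, 9 and 8 counts in siNC and 20, 20 and 14 in siTRIM28, with a log2 fold change of 0.99. In siNC only replicate 1 reached 10 counts, so SNAI1 met the count minimum only with the siTRIM28 libraries. Its call was lost in 5 of 16 alternatives. ZEB2, a repressor of the same kind, rose by 0.36. ZEB1, at 416 ± 15.1 CPM in siNC, had a log2 fold change of 0.06 and did not pass the test.

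Genes that PPAR receptors are known to activate were read from a list of 13. FABP4, LPL and CIDEC, fat cell genes, were listed at 0 in every library, and CD36, PDK4 and ADIPOQ had at most 1 count. Of the 6 that were tested, 4 rose, 1 fell and 1 did not pass the test. Their median was 0.36, against 0.02 over all genes tested. Over all genes tested, 21.3% rose and 20.5% fell. ANGPTL4, a secreted inhibitor of lipoprotein lipase, rose from 5.41 ± 0.252 to 16.5 ± 0.476 CPM, with a log2 fold change of 1.61. CPT1A and ACADVL, enzymes of mitochondrial fatty acid oxidation, rose by 0.59 and 0.42, and FABP5, a fatty acid binding protein gene, fell by 0.21. Several of these genes are known to respond to PPARA or PPARD as well.

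**Figure D5:**
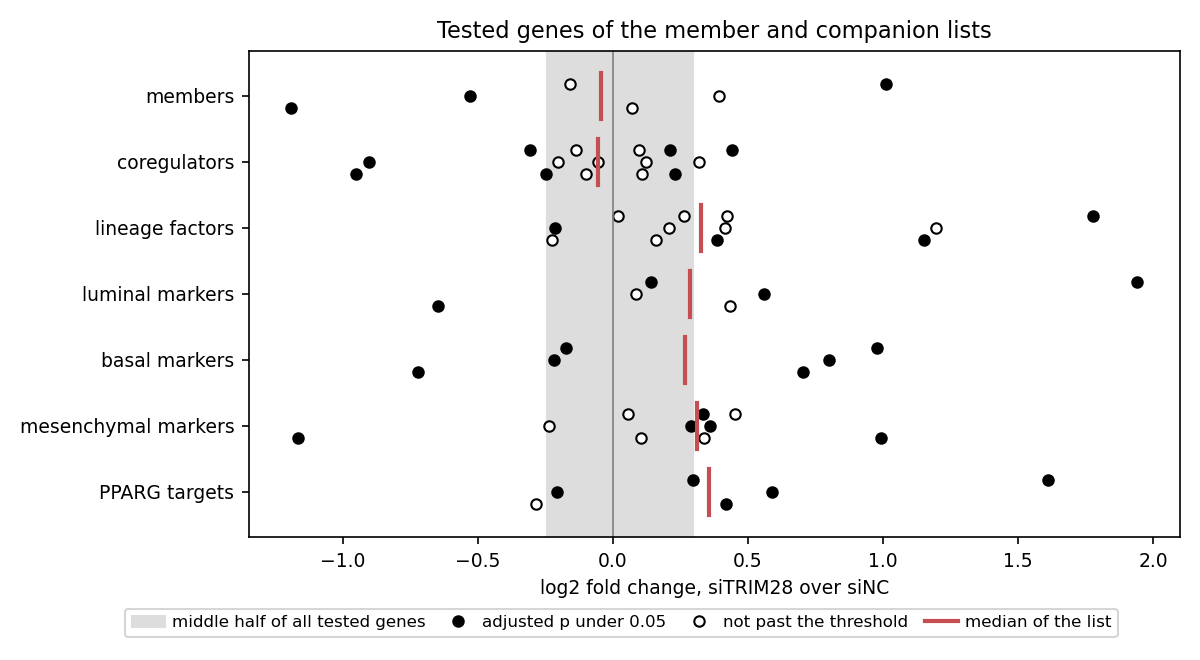
Each point is the log2 fold change (x axis) of 1 tested gene of the list named on the y axis, filled where the adjusted p is under 0.05; red lines are list medians and the grey band holds the middle 50% of all tested genes. The medians run from −0.06 for the coregulators to 0.36 for the PPAR targets, with single genes of most lists far to both sides.

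The genes whose levels followed PPARG most closely over the 6 libraries were SLC25A5 (Pearson r = 0.986), LDHB (0.986), ENSG00000285854 (0.985), H3-5 (0.978) and VPS33B (0.977), among 12827 genes with a mean of at least 50 counts. The 6 points share their libraries and depths, PPARG itself overlapped between the groups, and the correlations are a description with no test.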

How the data were processed

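RNA of 3 siNC and 3 siTRIM28 replicates of T24 was sequenced from stranded poly(A) libraries. The authors deposited raw counts per gene, made, per the submitters' processing notes, with fastp 0.23.1, STAR 2.7.6a and featureCounts on GRCh38. The annotation release and the strand setting of the counting are not given in the sources used here. A second deposited table, of RPKM values and results for genes the authors called differentially expressed, was not used. All count columns matched 1 sample each by name, and 0 columns belonged to no sample.

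Genes that reached 10 counts in no fewer than 3 libraries were tested across the whole table with edgeR 4.0.16 (TMM scaling, quasi-likelihood test, R 4.3.3), with Benjamini-Hochberg adjustment over all 18474 genes tested and a threshold of 0.05. Every edgeR adjusted p in the text is of this test. Fold changes are siTRIM28 over siNC on the log2 scale with 95% intervals. CPM and RPKM were computed from the counts, RPKM with the exon length in the table. Single values were also compared by a two-sided exact permutation test over libraries. The procedure was tested on simulated data. Alternatives used DESeq2 1.42.0, limma-voom (limma 3.58.1), scaling by RLE, total counts or the upper quartile, other count minimums and thresholds, a replicate block and leaving out each library. Same-numbered libraries did not deviate together (correlations 0.0523, −0.0118 and 0.0374), so their numbers were not taken as pairs.

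Every member was described. From the other lists, the genes past the threshold with the 3 largest changes were named, and further genes were chosen once their values had been seen. A few list genes that count in the totals and medians are not reported here by name. The members and lists were chosen with earlier results of these data known. Intervals and floors cover counting error or the spread of 3 libraries only.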

Additional observations from a re-analysis of the deposited data

How the results depend on the processing

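The count of members past the threshold was 2 or 3 under every alternative, and RXRA kept its call in all 17. The log2 fold change of RXRB stayed below 0 in all 17 and missed only the fold limit of 0.58. With libraries left out 1 at a time, PPARG ranged from −0.0040 to 0.18, TFAP2A from −0.013 to 0.043, STUB1 from −0.11 to 0.22 and GATA6 from −0.47 to 0.024, each crossing 0 without passing the test. The count of genes past the threshold went from 7723 to 3144 when a log2 change of 0.58 or more in size was also required, where coregulators (7 in the reported fit), lineage factors (4), luminal markers (4), mesenchymal markers (5) and PPARG targets (5) each fell to 2. DESeq2 and an adjusted p under 0.01 each left 2 lineage factors and 2 luminal markers. Summing the close replicate pairs, an alternative chosen after seeing the data, left 3 PPARG targets. Leaving out 1 library gave 6367 to 8252 genes and 2 to 4 lineage factors. The causes were not tested.

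The labels number the replicates of both groups, so a fit with the replicate number as a block was run: it called 7910 genes against 7723, and TP63 missed the threshold with an edgeR adjusted p of 0.0646. DESeq2 called 5878 genes. Depth limits GATA3, TP63, ELF3, GRHL2 and GRHL3, with at most 15 counts in a library. TP63 could not be tested with 10 counts required in every library.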

Other observations

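ELF3-AS1, which overlaps ELF3 on the opposite strand, had 213 counts over the siNC libraries and 223 over the siTRIM28 libraries, while ELF3 had at most 2 counts in a library. Its log2 fold change was 0.17 (edgeR adjusted p = 0.418). STPG1, which overlaps GRHL3 on the opposite strand, had 417 and 399 counts with a log2 fold change of 0.03 (edgeR adjusted p = 0.865), beside at most 2 counts of GRHL3 in a library.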
